A study of Mus musculus with 18 samples.

Results

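The 40 genes described here belong to the NF-kB and inflammatory programme and were followed across mouse bone marrow cells selected for cKit, a receptor of blood stem and progenitor cells. The 40 members were taken by gene symbol from both deposited count tables, which list 41079 genes, and all 40 had at least 1 fragment. They comprise 4 transcription factor genes, 3 inhibitors, 3 nuclear cofactors, 8 feedback regulators, 7 receptor and signalling genes, 10 cytokine and chemokine genes and 5 effector and surface genes.

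RNA was sequenced from cells of 2 genotypes, wild type (WT) and AE9a, a splice form of the RUNX1-RUNX1T1 leukaemia fusion. Each genotype had been given DMSO, C16 or RE, with 3 libraries in each of the 6 groups. The study set out to learn how WT and AE9a cells respond to inhibition of WDR5 and MLL1, parts of a histone methyltransferase complex. The sources used here do not say which compound acts on which protein, at what dose or for how long, how AE9a was brought into the cells, whether cells were treated in culture, or whether the 3 replicates came from separate animals. The p-values therefore measure only the spread between these samples, which may be technical. Each genotype has a table of its own, so a difference between genotypes cannot be told apart from one between batches.

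NF-kB is a family of dimeric transcription factors held in the cytoplasm by IkB proteins. Signals from TNF receptors, Toll-like receptors and the interleukin-1 receptor lead to loss of the IkB proteins, and the released dimers enter the nucleus and bind kB sites. Their targets include cytokines and chemokines, and also the IkB proteins, A20 and other regulators that shut the signal off. In bone marrow these genes are known from emergency myelopoiesis and from monocytes, macrophages and mast cells.

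Many of these genes are textbook NF-kB targets, so the sequence before their starts is shown for members with a match that were called in 2 or more comparisons. RefSeq start regions on GRCm38.p6 could be matched for 31 of the 40 members; Nfkb1, Relb, Nfkbiz, Map3k8, Cd40, Il10, Ccl2, Ccl4 and Cd83 were not matched. The 250 bases before each start were searched on both strands for the kB consensus, a motif of 10 letters. A match was found in 13 of the 31 members (41.9%) and in 4.46% of the 27025 genes in the same table. A match describes the letters and is neither a shown site nor a cause. Of these, the 8 called in 2 or more comparisons are printed, 5′ to 3′ on the gene's strand, with all bases of a match in capitals. Overlapping matches and matches on both strands form 1 run of capitals.
Nfkbie, chr17:45555574-45555623 (+): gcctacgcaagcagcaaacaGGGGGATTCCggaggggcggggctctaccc
Tnfaip3, chr10:19015411-19015555 (-): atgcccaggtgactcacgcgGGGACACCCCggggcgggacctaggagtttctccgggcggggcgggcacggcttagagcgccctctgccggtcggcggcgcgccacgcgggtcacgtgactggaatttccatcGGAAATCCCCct
Ier3, chr17:35821601-35821650 (+): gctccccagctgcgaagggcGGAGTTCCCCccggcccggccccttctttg
Il6, chr5:30013050-30013099 (+): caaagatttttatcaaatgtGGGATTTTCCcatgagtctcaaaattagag
Tlr2, chr3:83841751-83841801 (-): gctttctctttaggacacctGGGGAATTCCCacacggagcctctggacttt
Sod2, chr17:13007736-13007785 (+): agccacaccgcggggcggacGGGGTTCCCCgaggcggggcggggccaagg
Nfkb2, chr19:46304678-46304736 (+): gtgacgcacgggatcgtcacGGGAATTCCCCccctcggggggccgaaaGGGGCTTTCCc
Rel, chr11:23771031-23771081 (-): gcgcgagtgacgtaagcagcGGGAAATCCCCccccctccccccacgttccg
The other members with a match were Nfkbia, Nfkbid, Tnip1, Cxcl2 and Nlrp3.

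Libraries held 16053727 to 27207748 counted fragments. Kit stood at 858 to 1190.1 CPM (fragments relative to the TMM-scaled library size) in AE9a DMSO cells and at 59.6 to 128 CPM in WT DMSO cells. Runx1t1, whose sequence is part of the fusion, stood at 33.4 to 46.2 CPM in AE9a DMSO and RE libraries and at no more than 0.388 CPM in WT libraries. In the AE9a C16 libraries it stood at 2.43, 4.22 and 0.211 CPM, so the library labelled AE9a C16 3 lay within the WT range. That library also lay apart from AE9a C16 1 and 2, by a root mean square log2 difference of 0.398 and 0.417 against 0.17 between those. In WT cells replicate 2 stood apart under each treatment. The library labelled WT C16 2 lay 0.812 and 0.86 from WT C16 1 and 3 but 0.438 to 0.452 from the AE9a C16 libraries. It also lay 0.459 from WT DMSO 2 and 0.654 from WT RE 2. Its deviations from the group mean correlated with those of these 2 libraries at 0.794 and 0.727. WT DMSO 2 lay 0.609 and 0.594 from its partners, and WT RE 2 lay 0.728 and 0.706. Runx1t1 stood at 0 CPM in the library labelled WT C16 2. Whether the labels of AE9a C16 3 and WT C16 2 were exchanged was not tested, and every C16 value below takes them as given. The main C16 results are also given without these libraries.

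Members were tested with edgeR's quasi-likelihood test. Changes are fitted log2 fold changes ± standard error with n = 3 libraries per group. The standard error is the absolute change over the square root of the test's F statistic, so its spread comes from all libraries of the fit. The p-values are adjusted over all genes tested, and a gene is called at an adjusted p under 0.05. Of the 40 members 39 were tested in every comparison. Il10, an anti-inflammatory cytokine gene, had 67 fragments over all libraries and at most 0.604 CPM and was not tested. Il1a was near the filter on low counts: in each genotype only the RE group had all 3 libraries over the minimum.

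**Figure D1:**
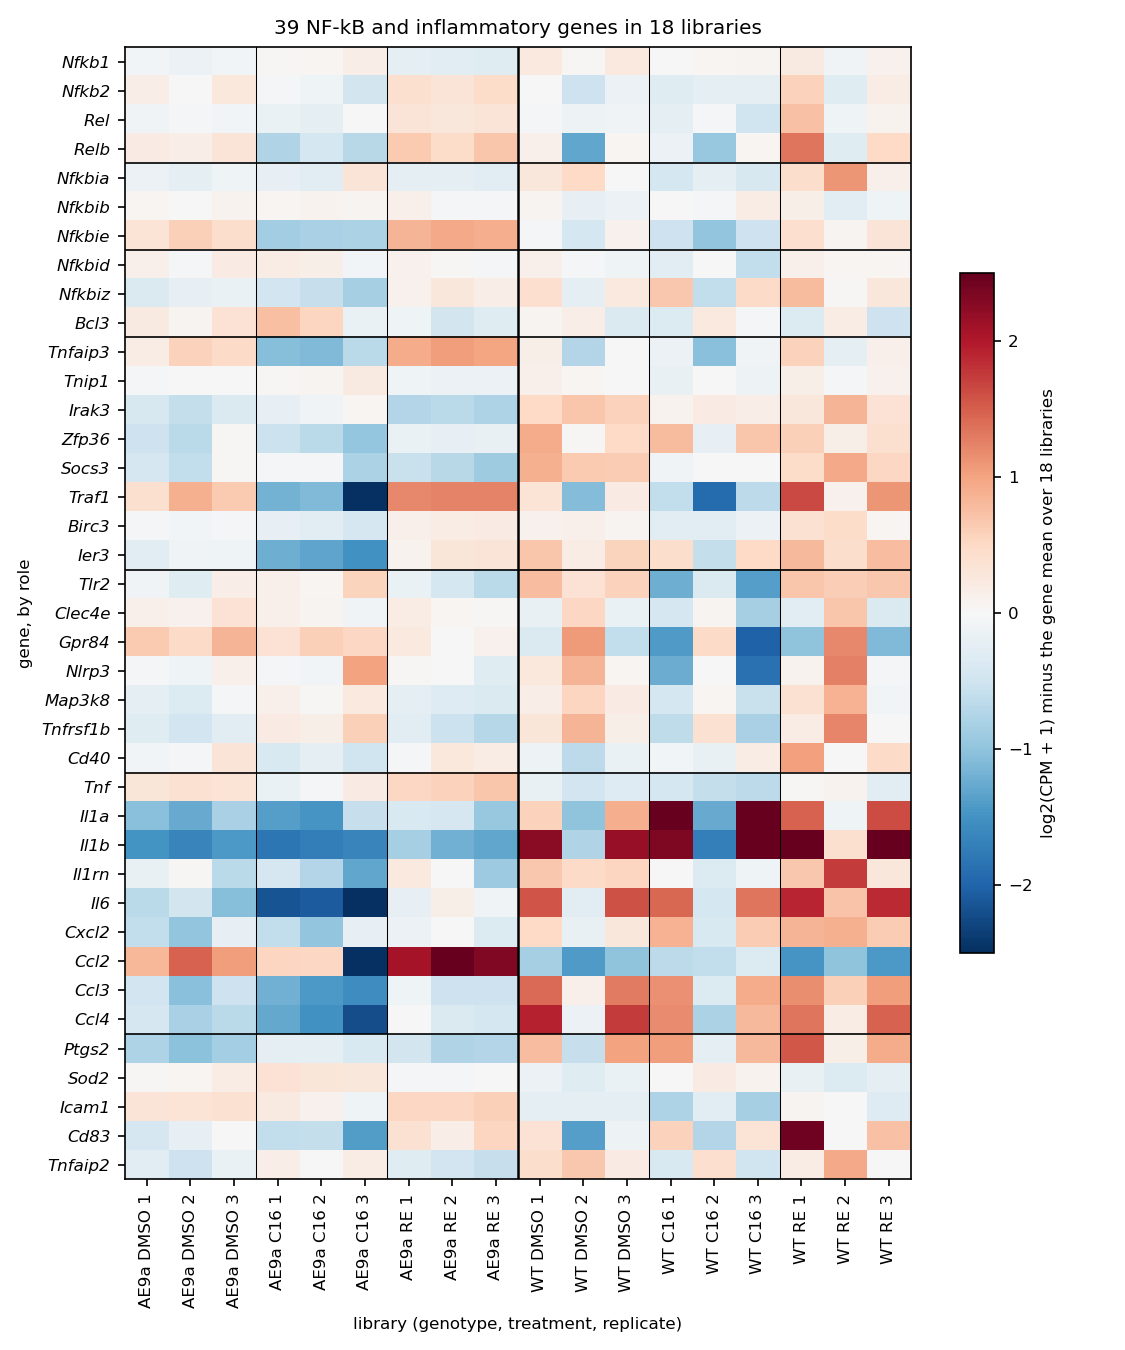
Level of 39 members in each of 18 libraries, as log2(CPM + 1) minus the gene's mean over all libraries, with rows in order of role and colours that saturate at the ends of the scale. Nfkbie, Tnfaip3, Traf1 and Ier3 are blue in the AE9a C16 columns, and Il1b, Il6, Ccl3 and Ccl4 are red in WT replicates 1 and 3 and paler or blue in WT replicate 2.

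Per gene length, the members under DMSO ranged widely. In AE9a DMSO cells the highest mean RPKM (fragments per kilobase of exon, scaled to library size) was that of Ccl2, a chemokine for monocytes, at 111. Ier3, an early stress response gene, followed at 63.9, and Nfkb1, which encodes p105 and p50, at 45.7. In WT DMSO cells the chemokine gene Ccl4 was highest at 125 RPKM, then Ier3 at 100 RPKM and the chemokine gene Ccl3 at 98.1 RPKM. Ccl2, first in AE9a cells, stood at 23.1 RPKM in WT DMSO cells. Among the transcription factor genes Nfkb1 stood at 45.7 and 55.2 RPKM in AE9a and WT DMSO cells, Rel at 8.86 and 8.75 RPKM, Nfkb2 at 5.55 and 4.28 RPKM and Relb at 2.20 and 1.54 RPKM. Il10 was lowest in both, at 0.0553 and 0.163 RPKM.

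Under DMSO, cytokine, feedback and effector genes differed between the genotypes. Il1b, Il6, Ccl3 and Ccl4 were lower in AE9a than in WT cells, while Ccl2 and Tnf were higher. In all, 5 members were higher and 11 lower in AE9a cells, which is 16 of 39 tested (41.0%) where 26.7% of all genes were called. The lower members made up 28.2% of those tested against 13.8% of all genes, and the higher members 12.8% against 12.9%. The members' median log2 change was -0.27 and that of all genes -0.05.

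Of the 9 cytokine and chemokine genes tested 2 were higher and 4 lower. Il1b (chromosome 2, 129206490 to 129213059 on GRCm39, as for all positions below), the inflammasome-processed interleukin, stood at 4.70, 4.13 and 4.97 CPM in AE9a DMSO libraries and at 76.1, 8.59 and 71.8 CPM in WT DMSO libraries (log2 -3.50 ± 0.98, adjusted p = 0.016). Il6 (chromosome 5, 30218112 to 30224973), a cytokine of the acute phase response, stood at 11.6, 13.6 and 8.59 CPM against 58.8, 15.6 and 59.4 CPM (log2 -1.98 ± 0.55, adjusted p = 0.016). For both genes every AE9a library lay below every WT library, and WT DMSO 2 lay far nearer to AE9a than its partners did. Ccl3 was measured at 26.2, 17.4 and 25.5 CPM against 99.6, 40.6 and 92.4 CPM (log2 -1.75 ± 0.37, adjusted p = 0.0027). Ccl4 was at 22.3, 16.6 and 18.5 CPM against 117, 26.9 and 103 CPM (log2 -2.11 ± 0.55, adjusted p = 0.011). These groups did not overlap, again with WT DMSO 2 as the lowest WT library. Without the 3 WT replicate 2 libraries the log2 differences were -4.01 for Il1b, -2.37 for Il6, -2.06 for Ccl3 and -2.53 for Ccl4.

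Ccl2 (chromosome 11, 81926403 to 81928278) went the other way, with 71.8, 113 and 83.9 CPM in AE9a against 22.1, 14.4 and 19.4 CPM in WT DMSO libraries (log2 2.26 ± 0.53, adjusted p = 0.0057). Tnf (chromosome 17, 35418343 to 35420983), a main activating ligand of the pathway, was at 32.2, 33.7 and 33.1 CPM against 22.7, 18.2 and 20.4 CPM (log2 0.69 ± 0.12, adjusted p = 0.00072). Both were higher in every AE9a library, Tnf with little spread. Il1a, the second interleukin-1 gene, had 0.254 to 0.695 CPM in AE9a and 0.496 to 4.64 CPM in WT DMSO libraries and was not called (adjusted p = 0.13), and Cxcl2, a neutrophil chemokine, had 0.58 to 1.69 CPM against 1.76 to 3.38 CPM (adjusted p = 0.061).

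Of the 8 feedback regulators 4 were lower in AE9a cells and none higher, although Tnfaip3 and Traf1 were called higher with the replicate block. Irak3 (chromosome 10, 119977553 to 120038035), an inhibitor of Toll-like receptor signalling, was at 48.9, 42.4 and 50.2 CPM in AE9a against 92.3, 106 and 96.8 CPM in WT DMSO libraries (log2 -1.06 ± 0.12, adjusted p = 3.1e-05). Socs3, a suppressor of cytokine signalling, was at 29.7, 25.8 and 41.0 CPM against 75.6, 63.4 and 62.9 CPM (log2 -1.07 ± 0.21, adjusted p = 0.0018). Zfp36, which destabilises cytokine mRNAs, was at 68.1, 61.7 and 101 CPM against 187, 101 and 140 CPM (log2 -0.89 ± 0.26, adjusted p = 0.022). Irak3 and Socs3 parted all libraries, whereas for Zfp36 AE9a DMSO 3 met WT DMSO 2. Ier3, the fourth, had a log2 difference of -0.65 ± 0.22 (adjusted p = 0.043). Among the IkB inhibitors Nfkbie, which encodes IkB-epsilon, was higher in AE9a cells, at 36.2, 43.2 and 38.5 CPM against 27.2, 20.5 and 30.3 CPM (log2 0.60 ± 0.15, adjusted p = 0.0091). Nfkbia, the IkB-alpha gene, was not called (log2 -0.44 ± 0.21, adjusted p = 0.13). Of the transcription factor genes 1 was called, Nfkb1, at log2 -0.27 ± 0.08 (adjusted p = 0.019).

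The 5 effector and surface genes divided. Ptgs2 (chromosome 1, 149975851 to 149983978), the inducible cyclooxygenase, was at 3.12, 2.47 and 2.93 CPM in AE9a against 11, 3.74 and 13.1 CPM in WT DMSO libraries (log2 -1.71 ± 0.46, adjusted p = 0.013). Icam1, a leukocyte adhesion molecule, was at 56.6, 57.7 and 59.2 CPM against 38.2, 37.9 and 38.0 CPM (log2 0.60 ± 0.13, adjusted p = 0.0039). Sod2, the mitochondrial superoxide dismutase, was at 100, 101 and 111 CPM against 87.9, 78.6 and 86.7 CPM (log2 0.30 ± 0.07, adjusted p = 0.0042). No library of these 3 genes crossed between the genotypes, and Icam1 had almost no spread. Tnfaip2, a TNF-induced gene, was lower at log2 -0.78 ± 0.25 (adjusted p = 0.032). None of the 7 receptor and signalling genes was called in the edgeR fit of all libraries without a block. Without the 3 WT replicate 2 libraries Gpr84 (log2 1.22, adjusted p = 5.7e-05) and Clec4e (0.39, adjusted p = 0.011) were called higher in AE9a cells. In that fit Tlr2 (-0.75, adjusted p = 0.0025), Tnfrsf1b (-0.57, adjusted p = 0.0039) and Map3k8 (-0.41, adjusted p = 0.026) were called lower. DESeq2 called Tlr2 lower (-0.62, adjusted p = 0.04). Over all roles 10 members were higher and 17 lower in every AE9a library, where libraries did not overlap for 47.7% of all genes (23% higher and 24.7% lower).

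Marker genes of several cell types differed alongside. Their summed level was 8003.8 to 10807.1 CPM in AE9a and 2018 to 3483 CPM in WT DMSO libraries for mast cells and basophils (8 genes), 237 to 283 CPM and 8.7 to 19.6 CPM for erythroid cells (6 genes), and 1069.6 to 1244.4 CPM and 1623.5 to 2327.8 CPM for monocytes and macrophages (14 genes). Their part in the members' differences was not tested, and in bulk RNA fewer cells of a type and less RNA per cell cannot be told apart. Without the 3 WT replicate 2 libraries 7 members were higher and 18 lower, with 50.7% of all genes called, and with the replicate number within a genotype as a block 26 members were called, with 41.7% of all genes. The block added Relb (log2 0.65, adjusted p = 0.014), Tnfaip3 (0.62, adjusted p = 0.0016), Traf1 (0.90, adjusted p = 0.015) and Gpr84 (0.68, adjusted p = 0.0075) as higher in AE9a cells. It added Nfkbia, Tlr2, Map3k8, Tnfrsf1b, Il1rn and Cxcl2 as lower, at log2 -0.43 (Nfkbia) to -1.29 (Cxcl2). Without AE9a DMSO 2 the count was 10 in all, 5 in each direction, and the calls of Il1b, Il6, Zfp36, Ptgs2, Nfkb1, Tnfaip2 and Ier3 each were lost on leaving out at least 1 of several single libraries. The share of all genes called was not counted for these fits, so the lower count is not shown to be particular to the members.

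**Figure D2:**
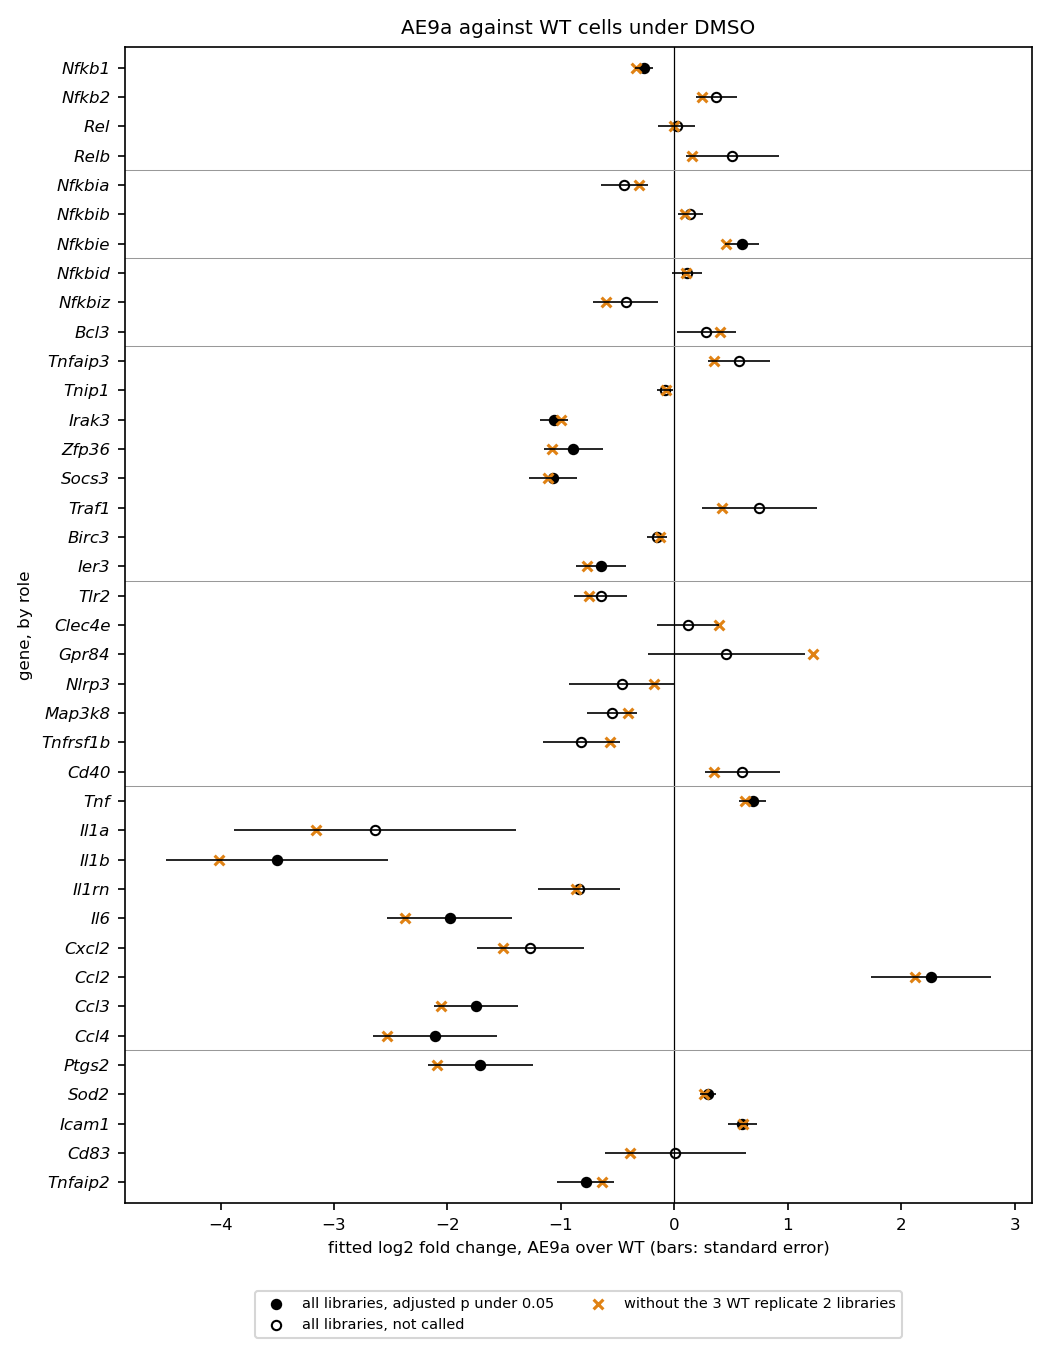
Fitted log2 fold change of AE9a over WT cells under DMSO for 39 members, with standard errors as bars, filled points for an adjusted p under 0.05 and crosses for the fit without the 3 WT replicate 2 libraries. Il1b, Ccl4, Il6, Ccl3 and Ptgs2 lie below -1.5, and Ccl2 lies at 2.26.

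Of 45 other genes of the pathway (receptors, adaptors, kinases and ubiquitin enzymes, Rela among them), 5 were higher and 5 lower in AE9a cells. Over all genes 12.9% were higher and 13.8% lower. Malt1, a paracaspase, stood at 183 ± 25.5 CPM (SD) in AE9a and 84.0 ± 6.25 CPM in WT DMSO cells (log2 1.12 ± 0.16, adjusted p = 0.00014). Tnip3, an A20-binding protein gene, had 10.9 ± 0.803 CPM in AE9a and 35.2 ± 18.4 CPM in WT DMSO cells (log2 -1.69 ± 0.49, adjusted p = 0.02). The Toll-like receptor genes Tlr4 and Tlr6 were lower at log2 -1.02 ± 0.29 (adjusted p = 0.017) and -0.83 ± 0.28 (adjusted p = 0.041).

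In AE9a cells given C16, Traf1, Il6, Tnfaip3, Nfkbie and Ier3 fell by more than 1.2 on the log2 scale, whereas the TNF receptor gene Tnfrsf1b and the cyclooxygenase gene Ptgs2 rose. Against DMSO 7 members rose and 16 fell, 23 of 39 tested (59.0%), where C16 changed 66.3% of all genes. The share that fell, 41.0%, stood beside 33.2% of all genes, and the share that rose, 17.9%, beside 33.1%. The members' median was -0.24 and that of all genes 0.00.

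Among the feedback regulators 4 fell and 1 rose. Traf1 (chromosome 2, 34831762 to 34851784), a TNF receptor adaptor, stood at 19.1, 27.4 and 23.0 CPM in DMSO and 5.75, 6.11 and 1.69 CPM in C16 libraries (log2 -2.39 ± 0.32, adjusted p = 0.00015). Tnfaip3 (chromosome 10, 18876658 to 18891158), which encodes the deubiquitinase A20, stood at 62.3, 82.1 and 75.9 CPM in DMSO and 25.7, 25.0 and 33.8 CPM in C16 libraries (log2 -1.44 ± 0.13, adjusted p = 1.2e-05). Ier3 (chromosome 17, 36132605 to 36133803) stood at 64.4, 73.0 and 71.5 CPM and 32.5, 30.3 and 26.6 CPM (log2 -1.27 ± 0.09, adjusted p = 4.1e-06). In all 3 genes each C16 library lay below each DMSO library, and the library labelled AE9a C16 3 was lowest for Traf1 and highest for Tnfaip3. Birc3, a TNF receptor-bound ubiquitin ligase, fell by a small step (log2 -0.30 ± 0.06, adjusted p = 0.0012). Irak3 rose, from 48.9, 42.4 and 50.2 CPM to 56.2, 61.1 and 67.4 CPM (log2 0.34 ± 0.08, adjusted p = 0.0047).

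The IkB family and its cofactors moved unevenly. Nfkbie (chromosome 17, 45866626 to 45874095) stood at 36.2, 43.2 and 38.5 CPM in DMSO and at 14.9, 15.7 and 15.9 CPM in C16 libraries (log2 -1.40 ± 0.07, adjusted p = 1.4e-06). The 3 C16 libraries lay close together and far below DMSO. Nfkbia and Nfkbib, the IkB-alpha and IkB-beta genes, had log2 values of 0.09 ± 0.14 (adjusted p = 0.59) and -0.02 ± 0.06 (adjusted p = 0.71). Nfkbiz, a nuclear cofactor needed for Il6 induction, fell by log2 -0.46 ± 0.11 (adjusted p = 0.004), and the cofactor genes Nfkbid and Bcl3 were not called.

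Of the transcription factor genes, Relb (chromosome 7, 19340142 to 19363352), of the noncanonical pathway, stood at 18.7, 18.2 and 20.5 CPM in DMSO and 9.22, 11.6 and 9.51 CPM in C16 libraries (log2 -0.97 ± 0.11, adjusted p = 4.2e-05). Nfkb2, its usual partner p100/p52, went from 63.3, 56.7 and 68.0 CPM to 54.8, 52.5 and 40.8 CPM (log2 -0.39 ± 0.11, adjusted p = 0.01). Nfkb1 went from 197, 187 and 198 CPM to 212, 216 and 233 CPM (log2 0.13 ± 0.04, adjusted p = 0.024). Groups did not overlap for any of these, but the rise of Nfkb1 was small and its call was lost without AE9a DMSO 1, AE9a DMSO 2 or the library labelled AE9a C16 3.

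Of the 9 tested cytokine and chemokine genes 4 fell and none rose. Il6 stood at 11.6, 13.6 and 8.59 CPM in DMSO and 3.52, 3.77 and 1.37 CPM in C16 libraries (log2 -2.0 ± 0.30, adjusted p = 0.00029). Ccl4 stood at 22.3, 16.6 and 18.5 CPM and 11.8, 9.87 and 5.65 CPM (log2 -1.11 ± 0.24, adjusted p = 0.0025). Ccl3 stood at 26.2, 17.4 and 25.5 CPM and 15.5, 13.1 and 12 CPM (log2 -0.81 ± 0.18, adjusted p = 0.0036). No library of these crossed, and the library labelled AE9a C16 3 was the lowest in each. Tnf fell by log2 -0.39 ± 0.09 (adjusted p = 0.0048). Ccl2 was at 58.6, 57.9 and 6.13 CPM in C16 libraries, where the library labelled AE9a C16 3 lay far below its partners, and was not called (log2 -1.18 ± 0.58, adjusted p = 0.1). Without that library its log2 change was -0.68 (adjusted p = 0.0078).

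Receptor and effector genes supplied most of the rises. Tnfrsf1b (chromosome 4, 144938938 to 144973453), TNF receptor 2, stood at 126, 111 and 128 CPM in DMSO and 179, 171 and 234 CPM in C16 libraries (log2 0.63 ± 0.13, adjusted p = 0.0026). Tnfaip2 stood at 141, 120 and 153 CPM and 193, 172 and 195 CPM (log2 0.39 ± 0.10, adjusted p = 0.0064). Ptgs2 stood at 3.12, 2.47 and 2.93 CPM and 5.07, 5 and 4.44 CPM (log2 0.73 ± 0.15, adjusted p = 0.002). C16 libraries were the higher in all 3, with the library labelled AE9a C16 3 standing out for Tnfrsf1b. Sod2 rose by log2 0.19 ± 0.05 (adjusted p = 0.0072) and Map3k8, the kinase TPL2, by 0.31 ± 0.11 (adjusted p = 0.03). Map3k8 went from 9.90, 9.18 and 11.7 CPM to 13.1, 12.1 and 14.3 CPM, and its call was lost without AE9a DMSO 1, AE9a DMSO 2, AE9a C16 1 or the library labelled AE9a C16 3. Cd40, a costimulatory receptor, and Cd83, a marker of activated dendritic cells, fell by log2 -0.76 ± 0.22 (adjusted p = 0.013) and -0.81 ± 0.26 (adjusted p = 0.022), the second not without AE9a DMSO 3 (adjusted p = 0.071). Icam1 fell by log2 -0.32 ± 0.08 (adjusted p = 0.0046). Clec4e, a receptor for mycobacterial glycolipids, fell by -0.21 ± 0.08 (adjusted p = 0.048) with overlapping libraries, and not without AE9a DMSO 3, AE9a C16 2 or the library labelled AE9a C16 3.

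C16 libraries lay wholly above DMSO for 8 members and wholly below for 17, where 71.6% of all genes did not overlap (38.8% above and 32.8% below). Mast cell and basophil markers summed to 256 to 1810.8 CPM in C16 against 8003.8 to 10807.1 CPM in DMSO libraries, with 7 of 8 genes lower, and erythroid markers to 1.06 to 6.47 CPM against 237 to 283 CPM, with 6 of 6 lower. Kit stood at 221 to 324 CPM, and monocyte and macrophage markers at 1296 to 1325.5 CPM against 1069.6 to 1244.4 CPM. The part of these shifts in the members' changes was not tested. The 16 members not called included Il1rn, the interleukin-1 receptor antagonist (log2 -0.62 ± 0.32, adjusted p = 0.12), Zfp36 (-0.42 ± 0.17, adjusted p = 0.06) and Nlrp3 (0.38 ± 0.27, adjusted p = 0.25). The others were Rel, Nfkbia, Nfkbib, Nfkbid, Bcl3, the A20 partner gene Tnip1, Socs3, Tlr2, Gpr84, Il1a, Il1b, Cxcl2 and Ccl2. Without the library labelled AE9a C16 3, 6 members rose and 19 fell, with 64.8% of all genes called: Rel (log2 -0.19, adjusted p = 0.0036), Nfkbia (-0.13, adjusted p = 0.045), Il1a (-1.96, adjusted p = 0.038) and Bcl3 (0.39, adjusted p = 0.027) then passed. Il1a was near the floor there, at 0.155 and 0.0819 CPM in AE9a C16 1 and 2, where 3 fragments are 0.150 and 0.118 CPM. In the same fit the values were -2.02 for Traf1, -1.69 for Il6, -1.59 for Tnfaip3, -1.42 for Nfkbie, -1.2 for Ier3 and 0.47 for Tnfrsf1b. These were all still called, whereas Nlrp3 turned to -0.09 (adjusted p = 0.51). The calls of Nfkb1, Clec4e and Map3k8 were lost in that fit. The Clec4e call was also lost without AE9a DMSO 3 or C16 2, that of Map3k8 without DMSO 1, DMSO 2 or C16 1, that of Cd83 without DMSO 3 and that of Sod2 without DMSO 2. In the fit of all 18 libraries, whose spread is that of both genotypes, 2 rose and 7 fell, with 45.8% of all genes called.

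With C16 in AE9a cells 33.1% of all genes rose and 33.2% fell, and of the 45 other pathway genes 9 rose and 19 fell. Among the falls was that of the kinase gene Irak2, from 25.5 ± 1.86 CPM to 13.9 ± 0.286 CPM (log2 -0.93 ± 0.06, adjusted p = 3.2e-06). Malt1 fell by log2 -0.91 ± 0.12 (adjusted p = 0.00014) and Il1r1, the interleukin-1 receptor, by -0.82 ± 0.18 (adjusted p = 0.0025).

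**Figure D3:**
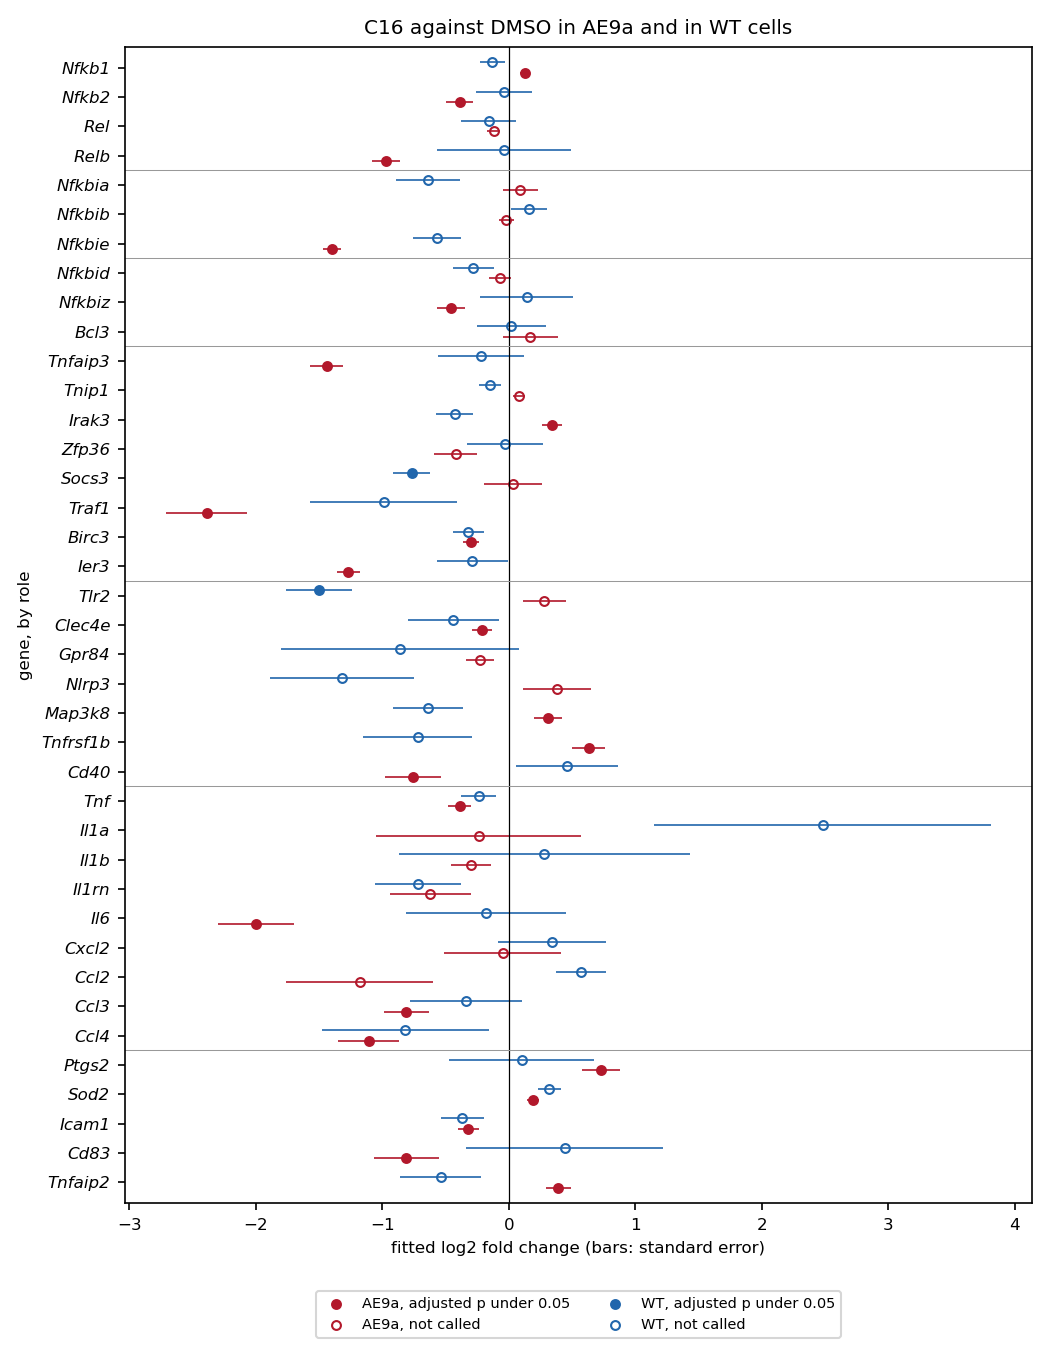
Fitted log2 fold change of C16 over DMSO for 39 members in AE9a cells (red) and WT cells (blue), with standard errors as bars and filled points for an adjusted p under 0.05. Traf1, Il6, Tnfaip3, Nfkbie and Ier3 are filled and below -1.2 in AE9a cells, while in WT cells only Tlr2 and Socs3 are filled. The fits had no replicate block.

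RE moved fewer members than C16 in AE9a cells and by less, as it did over all genes. Of all genes 29% were called with RE and 66.3% with C16, and their median absolute log2 change was 0.19 and 0.43. The factor genes Rel and Relb, the inhibitor gene Nfkbie, its relative Nfkbiz and the feedback genes Tnfaip3, Ier3 and Birc3 rose, and Gpr84, Irak3, Nfkb1 and Sod2 fell. These 7 rises and 4 falls are 11 of 39 members (28.2%), beside 29% of all genes. The share that rose was 17.9% against 12.2% of all genes, and the share that fell 10.3% against 16.8%. The median of the members was 0.16 and that of all genes -0.01.

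Rel (chromosome 11, 23686847 to 23720969), which encodes c-Rel, stood at 65.0, 67.5 and 65.9 CPM in DMSO and 86.4, 84.7 and 86.2 CPM in RE libraries (log2 0.34 ± 0.05, adjusted p = 0.0024). Relb was at 25.9, 22.6 and 26.6 CPM in RE libraries (log2 0.35 ± 0.10, adjusted p = 0.033), and Nfkb1 at 175, 170 and 169 CPM (log2 -0.22 ± 0.04, adjusted p = 0.0076). All 3 parted the libraries, with Rel and Nfkb1 tight within each group. Nfkbie stood at 51.7, 55.7 and 54.0 CPM with RE (log2 0.41 ± 0.07, adjusted p = 0.0027) and Nfkbiz went from 13.6, 15.1 and 15.6 CPM to 19.1, 21.6 and 19.8 CPM (log2 0.41 ± 0.10, adjusted p = 0.017). Each RE library exceeded each DMSO library for both.

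Tnfaip3 had the largest rise among the 7 members called, to 105, 114 and 109 CPM (log2 0.54 ± 0.12, adjusted p = 0.012). Ier3 was at 81.8, 96.1 and 96.6 CPM with RE (log2 0.36 ± 0.09, adjusted p = 0.017). Birc3 went from 55.9, 54.2 and 55.0 CPM to 62.2, 64.7 and 65.8 CPM (log2 0.18 ± 0.06, adjusted p = 0.038). The groups did not overlap, but the Birc3 call was lost on leaving out any 1 of the 6 libraries, and under the replicate block its adjusted p was 0.051. The Relb call was lost without AE9a DMSO 1, DMSO 2, RE 1 or RE 3, the Irak3 call without DMSO 1, DMSO 3, RE 1 or RE 3, the Ier3 call without DMSO 1, RE 2 or RE 3, and the Nfkbiz call without DMSO 1 or RE 2. Irak3 fell to 38.7, 40.5 and 37.4 CPM (log2 -0.32 ± 0.08, adjusted p = 0.02). Gpr84, a receptor for medium-chain fatty acids on myeloid cells, went from 28.2, 24.7 and 32.2 CPM to 21.0, 17.7 and 19.0 CPM (log2 -0.60 ± 0.11, adjusted p = 0.0049), and was the only one of 7 receptor and signalling genes called. Sod2 fell by a small step, from 100, 101 and 111 CPM to 94.2, 93.9 and 97.4 CPM (log2 -0.17 ± 0.05, adjusted p = 0.035), and its call was lost without any of AE9a DMSO 1 and 3 and the 3 RE libraries.

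None of the 9 cytokine and chemokine genes passed the test with RE, with a median log2 of 0.47. Ccl2 stood at 174, 235 and 204 CPM with RE against 71.8, 113 and 83.9 CPM with DMSO (log2 1.15 ± 0.56, adjusted p = 0.16). Il6 stood at 16.6, 21.3 and 17.9 CPM against 11.6, 13.6 and 8.59 CPM (log2 0.68 ± 0.26, adjusted p = 0.083). RE libraries were higher without overlap in both, but the fitted error was wide. With the replicate number as a block Il6 (log2 0.70, adjusted p = 0.028) and Tnf (log2 0.22, adjusted p = 0.046) passed, with 31.2% of all genes called. RE libraries lay wholly above DMSO for 16 members and wholly below for 7, where 49.1% of all genes did not overlap (27.6% above and 21.5% below).

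**Figure D4:**
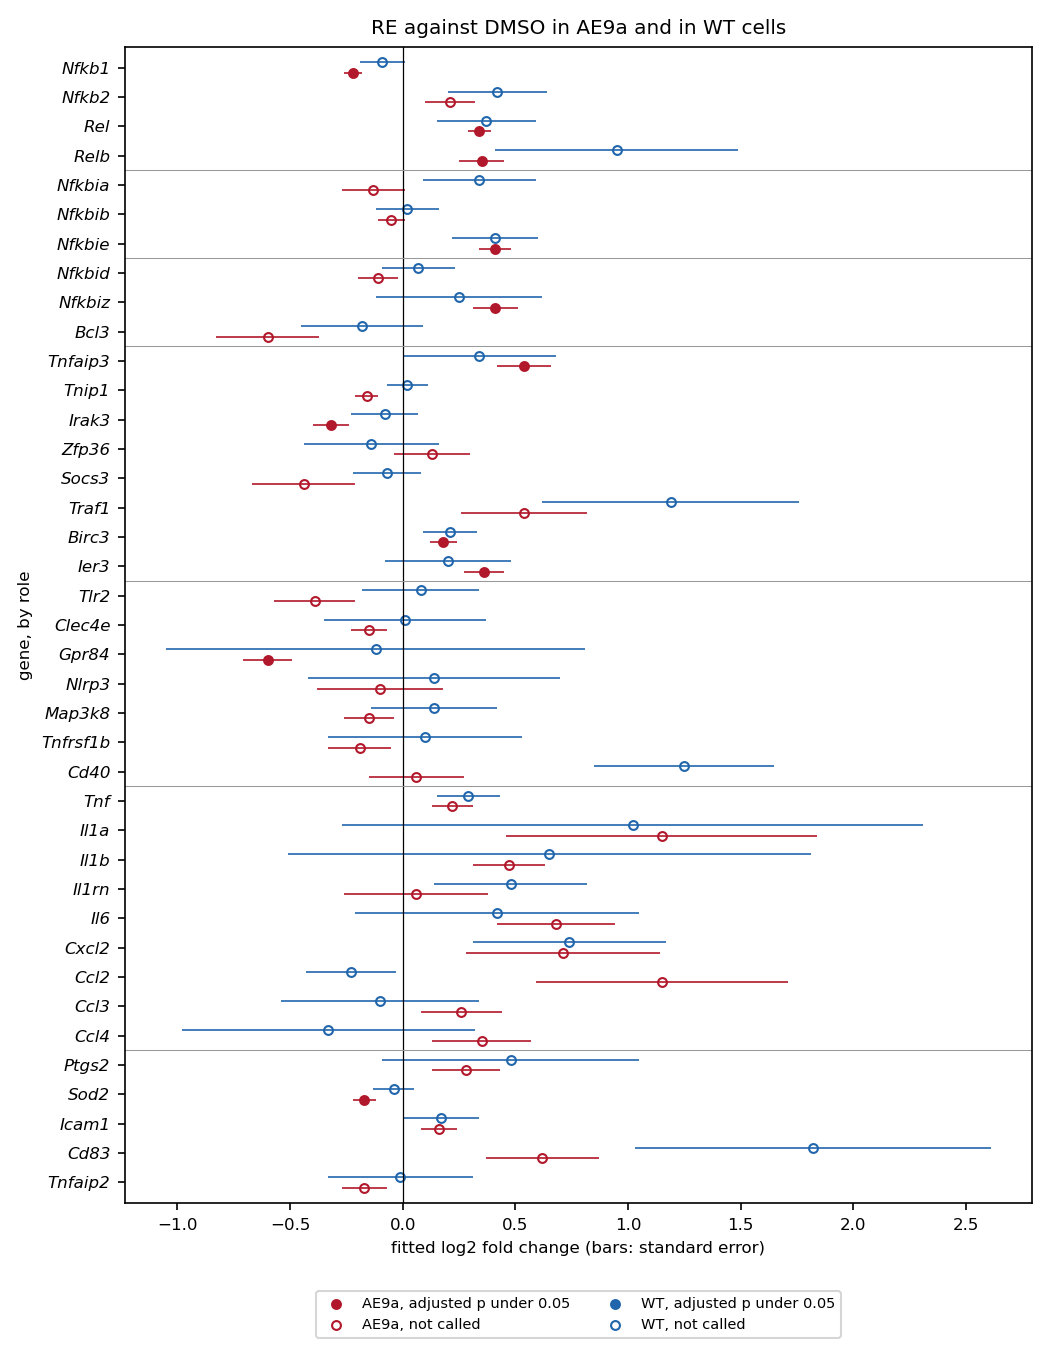
Fitted log2 fold change of RE over DMSO for 39 members in AE9a cells (red) and WT cells (blue), with standard errors as bars and filled points for an adjusted p under 0.05. In AE9a cells 11 points are filled, from Gpr84 at -0.60 to Tnfaip3 at 0.54, and none is filled in WT cells. The fits had no replicate block.

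Monocyte and macrophage markers summed to 649 to 910.0 CPM in RE against 1069.6 to 1244.4 CPM in DMSO libraries, with 9 of 14 lower, and mast cell and basophil markers to 13803.0 to 15852.4 CPM against 8003.8 to 10807.1 CPM, with none of 8 called. Their part in the members' values was not tested. Leaving out single libraries gave 5 to 9 members called (5 without AE9a DMSO 1, and 7 without any 1 RE library). The share of all genes called was not counted there. The edgeR fit of all 18 libraries called 0, with 3.16% of all genes called. At an unadjusted p under 0.05 the edgeR fit of the AE9a libraries counted 17 of 39 members and 41.2% of 14704 genes. DESeq2, run without the filter on low counts, counted 20 of 40 members and 20.7% of 25973 genes. The shares of the 2 tools are thus over unlike sets of genes. Of the 45 other pathway genes 5 rose and 5 fell with RE, where 12.2% of all genes rose and 16.8% fell. Malt1 rose from 183 ± 25.5 CPM to 275 ± 32.7 CPM (log2 0.55 ± 0.12, adjusted p = 0.0094). Tnip3 and the kinase gene Ikbke fell by -0.68 ± 0.12 (adjusted p = 0.0034) and -0.49 ± 0.10 (adjusted p = 0.006).

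The C16 and RE comparisons share the 3 DMSO libraries, so their values are set side by side only. Nfkbie changed by -1.40 with C16 and 0.41 with RE, Tnfaip3 by -1.44 and 0.54, Relb by -0.97 and 0.35, Ier3 by -1.27 and 0.36, Irak3 by 0.34 and -0.32, and Nfkb1 by 0.13 and -0.22. Compared directly, 11 members were higher and 19 lower with C16 than with RE, 30 of 39 (76.9%) where 74.6% of all genes were called. This change sets C16 against RE libraries only, but the DMSO libraries enter the spread, the filter and the scaling of the fit. The lower share was 48.7% against 37.2% of all genes and the higher share 28.2% against 37.5%, and the members' median was -0.49 against 0.01.

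Traf1 stood at 34.0, 35.1 and 35.1 CPM in RE libraries and at 5.75, 6.11 and 1.69 CPM in C16 libraries (log2 -2.93 ± 0.32, adjusted p = 2.5e-05). Il6 differed by log2 -2.68 ± 0.30 (adjusted p = 2.8e-05), Ccl2 by -2.32 ± 0.59 (adjusted p = 0.0054) and Tnfaip3 by -1.97 ± 0.13 (adjusted p = 8.8e-07). The RE and C16 libraries of these 4 genes, whose values are given above, did not overlap. Without the library labelled AE9a C16 3 the Ccl2 difference was -1.82 (adjusted p = 1.1e-05), those of Traf1 and Il6 -2.56 and -2.36, and 12 members were higher and 21 lower, with 73.4% of all genes called. The Bcl3 call was lost without AE9a C16 1 or RE 2, that of Gpr84 without C16 2 or RE 2, and that of Ptgs2 without C16 1, C16 2, RE 2 or RE 3. Nfkbie differed by -1.81 ± 0.07 (adjusted p = 1.6e-07), Ier3 by -1.63 ± 0.09 (adjusted p = 4e-07), Ccl4 by -1.46 ± 0.24 (adjusted p = 0.00036) and Cd83 by -1.43 ± 0.26 (adjusted p = 0.00073). Il1b was also lower with C16, at 3.57, 3.85 and 4.12 CPM against 8.04, 5.99 and 5.57 CPM (log2 -0.77 ± 0.16, adjusted p = 0.0017).

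Higher with C16 than with RE were Tnfrsf1b (log2 0.82 ± 0.14, adjusted p = 0.0004), the cofactor Bcl3 (0.77 ± 0.23, adjusted p = 0.012, with overlapping libraries), Tlr2, the receptor for bacterial lipoproteins (0.67 ± 0.18, adjusted p = 0.0062), Irak3 (0.65 ± 0.08, adjusted p = 6e-05) and Tnfaip2 (0.56 ± 0.10, adjusted p = 0.0006). Tlr2 stood at 88.8, 83.3 and 120 CPM with C16 and 72.1, 59.3 and 50.3 CPM with RE, with every C16 library above every RE library. Libraries did not overlap for 10 members higher and 19 lower with C16, where 77.8% of all genes did not overlap (39.4% higher and 38.3% lower). Of the 45 other pathway genes 14 were higher and 20 lower with C16, where 37.5% of all genes were higher and 37.2% lower. Ikbke stood at 63.6 ± 6.04 CPM with C16 and 27.9 ± 2.76 CPM with RE (log2 1.18 ± 0.09, adjusted p = 3.1e-06), and Malt1 and the TLR4 cofactor gene Ly96 differed by log2 -1.46 ± 0.12 (adjusted p = 4e-06) and -1.24 ± 0.13 (adjusted p = 2.1e-05).

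**Figure D5:**
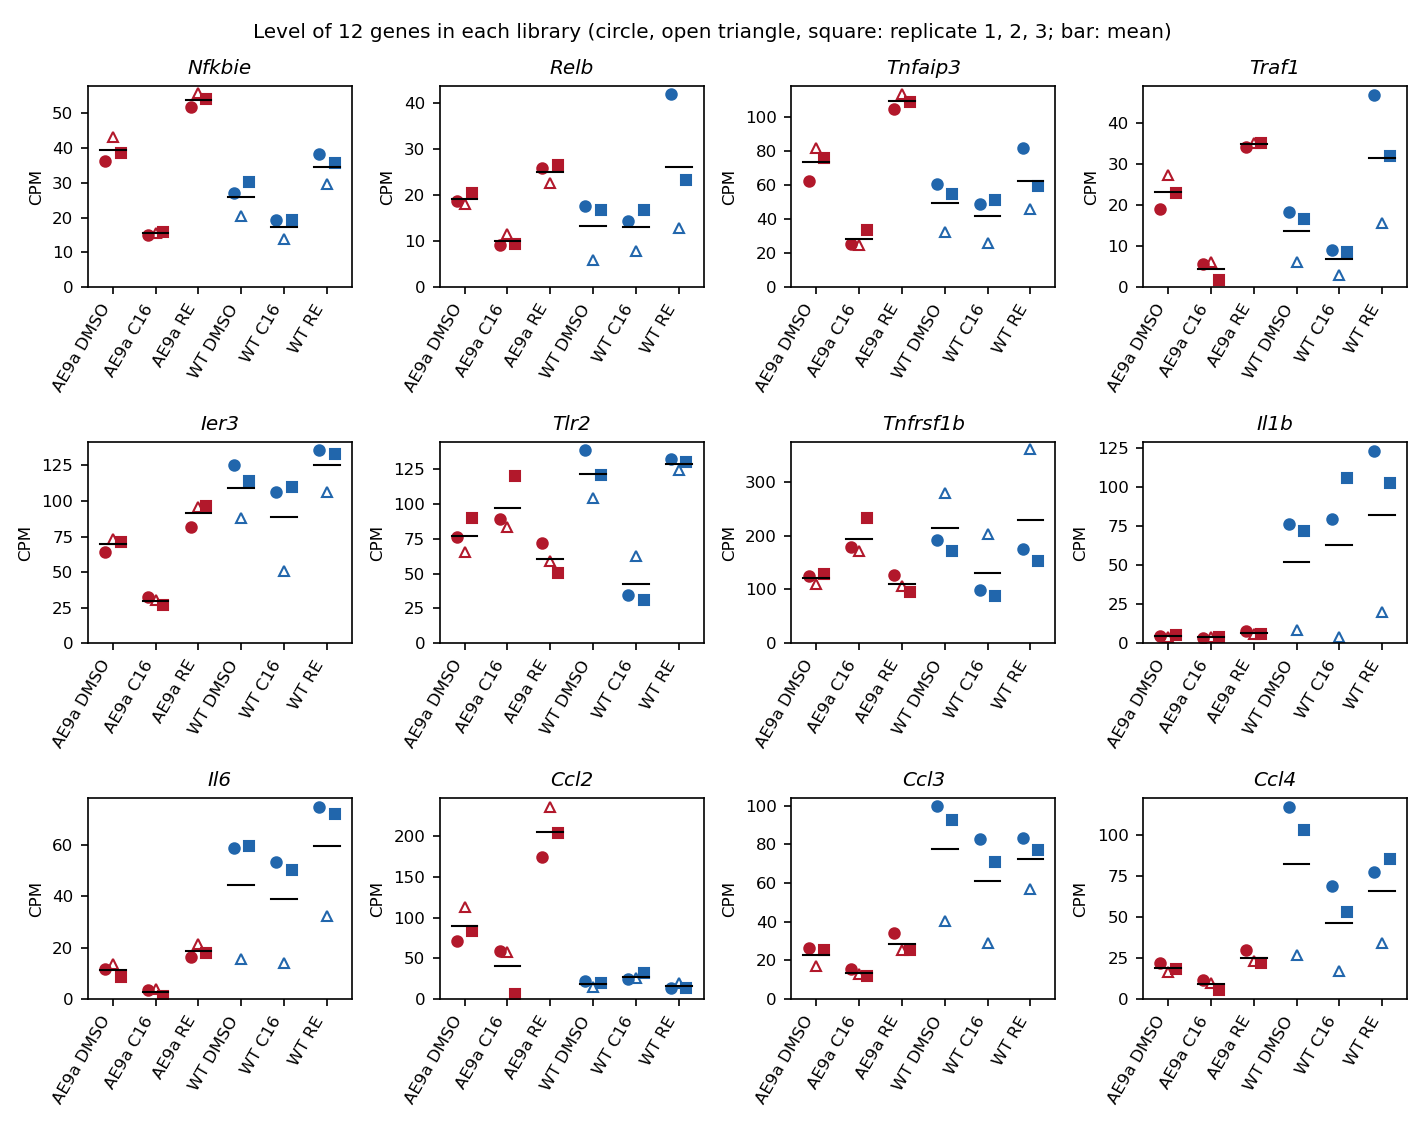
CPM of 12 members in each library, with a panel per gene, AE9a groups in red and WT groups in blue, circle, open triangle and square for replicates 1, 2 and 3, and a bar for the group mean. In AE9a cells Nfkbie, Relb, Tnfaip3, Traf1 and Ier3 are lowest with C16 and highest with RE in every library, and in WT cells the open triangles lie below the other points for Il1b, Il6, Ccl3 and Ccl4.

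In WT cells replicate 2 lay apart for many members. Its libraries lay below both partners under all 3 treatments for 16 of 39 members, among them Il1b, Il6, Ccl3, Ccl4, Relb, Traf1 and Tnfaip3, and above both for 9, among them Tnfrsf1b, Nlrp3, Gpr84 and Irak3, where 24.9% and 26.1% of all genes did so. Il1a shows the range, with 19.5, 0.251 and 27.9 CPM in the C16 libraries. Summed maturing neutrophil markers were 10494.9 CPM in WT DMSO 2 against 3264 and 2963.7 CPM in its partners, and megakaryocyte and platelet markers 393 CPM against 2890.1 and 2568.3 CPM. Whether this split bears on the members was not tested.

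In the fit without a block C16 lowered 2 members in WT cells and raised none. That is 5.13% of those tested beside 3.1% of all genes (0.957% higher and 2.15% lower). With the replicate number as a block, taken up below, 15 were called, where 24.2% of all genes were. Tlr2 (chromosome 3, 83743579 to 83749045) stood at 139, 104 and 121 CPM in DMSO and 34.3, 62.9 and 30.7 CPM in C16 libraries (log2 -1.50 ± 0.26, adjusted p = 0.031). Socs3 (chromosome 11, 117856905 to 117860192) stood at 75.6, 63.4 and 62.9 CPM and 37.6, 39.8 and 40.2 CPM (log2 -0.77 ± 0.15, adjusted p = 0.038). Neither gene's libraries overlapped, and the library labelled WT C16 2 was the highest C16 library for Tlr2. The calls did not survive leaving out WT DMSO 1, WT DMSO 3, WT C16 1 or WT C16 3, nor, for Socs3, WT DMSO 2.

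The replicate number as a block, which takes up the offset of replicate 2, gave 2 members higher and 13 lower with C16 in WT cells, where 24.2% of all genes were called. Those lower were Nfkbia, Nfkbie, Irak3, Socs3, Traf1, Tlr2, Clec4e, Gpr84, Nlrp3, Map3k8, Tnfrsf1b, Ccl4 and Tnfaip2, by log2 -0.43 (Irak3) to -1.54 (Tlr2), and those higher were Sod2 (0.32, adjusted p = 0.038) and Il1a (2.19, adjusted p = 0.037). Without the 3 replicate 2 libraries 3 were higher and 20 lower, with 41.7% of all genes called, and in the fit of all 18 libraries 1 was higher and 6 lower, with 19% called. Nlrp3, the inflammasome sensor, stood at 25.1, 38.3 and 21.5 CPM in DMSO and 8.20, 20.5 and 4.99 CPM in C16 libraries (log2 -1.32 ± 0.57, adjusted p = 0.22, or -1.49, adjusted p = 0.0048, with the block). Nfkbie stood at 27.2, 20.5 and 30.3 CPM and 19.3, 13.7 and 19.3 CPM (log2 -0.57 ± 0.19, adjusted p = 0.14, or -0.57, adjusted p = 0.0078, with the block). In both the C16 libraries lay below all DMSO libraries, and replicate 2 had the highest Nlrp3 and the lowest Nfkbie within each group. Relb, Tnfaip3, Ier3 and Il6, which fell in AE9a cells, had WT values of -0.04 ± 0.53, -0.22 ± 0.34, -0.29 ± 0.28 and -0.18 ± 0.63 and were not called with the block either. Without the 3 replicate 2 libraries Il6 was called, at -0.19 (adjusted p = 0.029). Without the library labelled WT C16 2 alone, Relb and Il6 stood at 0.22 and Tnfaip3 at 0.03, and Nlrp3 at -2.09 (adjusted p = 0.053). In that fit 3 members were called, all lower, Tlr2 (-1.90), Socs3 (-0.78) and Icam1 (-0.57), with 8.58% of all genes.

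C16 libraries lay wholly above DMSO for 2 members and wholly below for 10 in WT cells, where 29.5% of all genes did not overlap (14.3% above and 15.2% below). Monocyte and macrophage markers summed to 832 to 1194.5 CPM with C16 against 1623.5 to 2327.8 CPM with DMSO, 4 of 14 being lower. Eosinophil markers summed to 35.7 to 48 CPM against 313 to 750 CPM (2 of 4 tested lower). B lineage markers summed to 7.44 to 11.7 CPM against 24.2 to 38.7 CPM (4 of 6 lower). Megakaryocyte and platelet markers had a median log2 of 1.67, with none of 7 called. The part of these markers was not tested. Of the 45 other pathway genes none was higher and 2 were lower, where 0.957% of all genes were higher and 2.15% lower. These were Tlr1, at 16.2 ± 0.381 CPM in DMSO and 7.13 ± 0.892 CPM in C16 cells (log2 -1.17 ± 0.19, adjusted p = 0.027), and Irak2 (log2 -0.93 ± 0.15, adjusted p = 0.026).

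RE changed 0 of 39 members in WT cells by edgeR and 0 by DESeq2, beside 0.0266% and 0.425% of all genes. At an unadjusted p under 0.05 edgeR counted 1 member and DESeq2 3, beside 4.42% of 15046 and 2.98% of 26473 genes, the second without the filter on low counts. The edgeR one was Cd40, at 5.04, 1.98 and 3.17 CPM with RE against 1.72, 0.881 and 1.66 CPM with DMSO (log2 1.25 ± 0.40, adjusted p = 0.91). Every RE library was above every DMSO library, by less than the spread within RE. Cd83 stood at 37.7, 6.20 and 10.9 CPM against 8.21, 1.76 and 5.54 CPM (log2 1.82 ± 0.79, adjusted p = 1), with WT RE 1 far above its partners. The replicate block called Traf1 (log2 1.2, adjusted p = 0.022, beside 0.512% of all genes), which stood at 46.7, 15.5 and 31.9 CPM against 18.4, 6.17 and 16.6 CPM. Within each number RE was the higher. Without replicate 2, 8 members were higher and 2 lower, with 8.02% of all genes called. RE libraries lay wholly above DMSO for 2 members and wholly below for 0, where 13.1% of all genes did not overlap (6.77% above and 6.35% below), and none of the 45 other pathway genes was called.

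Between C16 and RE in WT cells 2 members were higher with C16 and 6 lower, 20.5% of those tested beside 11.9% of all genes (5.4% higher and 6.49% lower), with a median of -0.52 against -0.01. Tlr2 stood at 34.3, 62.9 and 30.7 CPM with C16 and 132, 124 and 130 CPM with RE (log2 -1.58 ± 0.26, adjusted p = 0.014). Nfkbie stood at 19.3, 13.7 and 19.3 CPM and 38.2, 29.6 and 35.6 CPM (log2 -0.98 ± 0.20, adjusted p = 0.023). Nfkbia (chromosome 12, 55536194 to 55539432) stood at 39.7, 46.1 and 40.9 CPM and 73.7, 118 and 59.5 CPM (log2 -0.98 ± 0.25, adjusted p = 0.043). The groups did not overlap, and WT RE 2 was far the highest for Nfkbia. Socs3, Birc3 and Tnf were lower at log2 -0.70 ± 0.15 (adjusted p = 0.026), -0.53 ± 0.12 (adjusted p = 0.028) and -0.53 ± 0.14 (adjusted p = 0.046). Ccl2 was higher with C16, at 25.2, 25.9 and 31.7 CPM against 13.9, 19.5 and 14.3 CPM (log2 0.80 ± 0.20, adjusted p = 0.042), and Sod2 by 0.36 ± 0.09 (adjusted p = 0.038). All 8 calls were lost on leaving out at least 1 single library (0 called without WT RE 1, 1 without WT C16 1 or WT C16 3, 4 without WT RE 2 or WT RE 3). The share of all genes was not counted for these counts. With the replicate block 2 were higher and 22 lower, with 34.2% of all genes called, and without replicate 2, 3 were higher and 26 lower, with 44.3%. The fit of all 18 libraries called 14, with 28.4% of all genes. Without the library labelled WT C16 2, 1 was higher and 7 lower, with 13.9% of all genes: Nlrp3 (-2.23), Icam1 (-0.74) and Nfkbid (-0.51) were added, and Nfkbia, Tnf and Ccl2 were lost. C16 libraries lay wholly above RE for 2 members and wholly below for 10, where 35.1% of all genes did not overlap (17% above and 18.1% below). Of the 45 other pathway genes 1 was higher and 4 lower, Irak2 among them (log2 -1.10 ± 0.15, adjusted p = 0.0087).

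The C16 response differed between the genotypes for 4 members by the interaction term, 3 higher and 1 lower in AE9a than in WT cells, 10.3% of those tested beside 13.1% of all genes (4.78% higher and 8.29% lower). Tlr2 differed most, by log2 1.84 ± 0.33 (adjusted p = 0.003): the change was -1.50 in WT cells, while in AE9a cells C16 libraries stood at 88.8, 83.3 and 120 CPM against 76.1, 65.5 and 90.2 CPM in DMSO libraries (log2 0.28 ± 0.17, adjusted p = 0.18). Irak3 differed by 0.82 ± 0.17 (adjusted p = 0.0079), from 0.34 in AE9a and -0.43 in WT cells. Map3k8 differed by 1.01 ± 0.31 (adjusted p = 0.047) and Nfkbie by -0.77 ± 0.21 (adjusted p = 0.03). The Tlr2 and Irak3 differences passed on leaving out each of the 12 libraries in turn, the Nfkbie difference was lost for 8 of them and the Map3k8 difference for 11. Without the library labelled AE9a C16 3 Nfkbie was at -0.79 (adjusted p = 0.053) and Map3k8 at 0.95 (adjusted p = 0.1), with 8.55% of all genes called. Without the library labelled WT C16 2 there were 15 members called, 10 higher and 5 lower, with 39.3% of all genes called, among them Tnfrsf1b (1.88, adjusted p = 0.0039), Nlrp3 (2.53, adjusted p = 0.0049), Tnfaip3 (-1.40, adjusted p = 0.0056) and Ier3 (-1.20, adjusted p = 0.00045). The values of Traf1 and Il6, -1.35 ± 0.73 (adjusted p = 0.22) and -1.77 ± 0.78 (adjusted p = 0.14), did not pass with all libraries. DESeq2 called 10 members (18.8% of all genes), the replicate block 17 (36.8%) and the fit without WT replicate 2 22 (49.8%). Monocyte and macrophage markers differed alongside, 4 of 14 being higher, and erythroid markers, 6 of 6 being lower, and their part was not tested. Of the 45 other pathway genes 4 were higher and 4 lower.

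The RE response differed between the genotypes for 0 of 39 members by edgeR and 0 by DESeq2, beside 0% and 0.243% of all genes. At an unadjusted p under 0.05 edgeR counted 1 member, Cd40 (log2 -1.16 ± 0.46, adjusted p = 1), and DESeq2 2. Beside these stood 4.28% of 15809 genes and 2.66% of 28054 genes, the second without the filter on low counts. Ccl2 had the widest gap, 1.42 ± 0.73 (adjusted p = 1), from 1.15 in AE9a and -0.23 in WT cells. With standard errors of this size the data do not show that the responses were alike.

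Counting ignored strand, and genes on the other strand overlap exons of Nfkb2, Nfkbib, Irak3, Traf1, Il1a, Il1b and Ccl3. Their values may include fragments of those genes, or lack own fragments that could not be assigned to a single gene. They are uncertain by either amount.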

How the data were processed

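RNA was sequenced from 18 libraries, 3 in each of 6 groups of genotype and treatment, and the groups and replicate numbers follow the submitters' sample titles. The authors deposited raw fragment counts per gene in 1 table per genotype. Per the file headers, featureCounts 1.6.2 counted read pairs, primary alignments only, over exons of RefSeq gene models on GRCm39, with no strand option. Per the submitters' processing notes the tools were FastQC 0.11.9, fastp 0.23.2, HISAT2 2.1.0, Subread, DESeq2 and featureCounts 2.0.3, so the sources differ on the last version. Every column was matched to a sample, and no pair of libraries held identical counts.

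Counts were tested with edgeR 4.0.16 (R 4.3.3): filterByExpr, TMM scaling and the quasi-likelihood test on group means, with Benjamini-Hochberg adjustment over all genes tested and a threshold of 0.05. The 9 libraries of a genotype were fitted together (14704 genes in AE9a, 15046 in WT), and all 18 for differences between genotypes and between responses (15809 genes). CPM and RPKM use the TMM scaling of all 18 libraries. Simulated counts, drawn as independent libraries at the spread of the fit without a block, were tested before use. In each simulation 100 genes were changed by 2-fold and 100 by 4-fold, drawn from genes over a minimum mean count. For C16 in AE9a cells 73% of the first and 97% of the second were recovered, with 14704 genes simulated. The shares were 29% and 59% for C16 in WT cells (15046 genes simulated). They were 55% and 87% between genotypes and 38% and 68% for the difference in C16 response (15809 genes simulated each). Fewer genes were changed than the real fits called, so these shares do not measure what those comparisons could call. Libraries of 16053727 to 27207748 fragments put 3 fragments at 0.110 to 0.187 CPM, and intervals here cover the spread of libraries.

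The alternatives were DESeq2 1.42.0, RLE scaling, no filter on low counts, the replicate number as a block, another set of libraries in the fit, each library left out in turn, and the 3 WT replicate 2 libraries left out together. Deviations from group means of same-numbered libraries correlated at 0.321 to 0.476 (AE9a DMSO and RE), 0.141 to 0.154 (AE9a C16 and RE) and 0.575 to 0.875 (the WT pairs of groups), so those were taken as paired from the data. In WT cells it is replicate 2 that sets the pairing, since WT DMSO 1 and C16 3 correlated at 0.69. AE9a DMSO and C16 correlated at 0.061, 0.339 and 0.233, the first being under the minimum of 0.1 set for pairing, and were not taken as paired. Both groups were taken as paired with RE by the same numbers, so this split rests on that minimum alone. With the block 7 members rose and 16 fell for C16 in AE9a cells, the same counts as without it.

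The members, the 45 other pathway genes and the marker lists were chosen with earlier results of these data known. Values in every library were given for up to 8 members called in each direction, by size of change, if the larger group mean reached 1 CPM, and up to 4 pathway genes per comparison were named, leaving out 1 that is not reported here. Values of other members were added after seeing them.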

Additional observations from a re-analysis of the deposited data

Results flagged for a closer look

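The C16 response differed between AE9a and WT cells for 4 members by the interaction term of edgeR's quasi-likelihood fit of all 18 libraries without a block. That is 10.3% of the 39 tested where 13.1% of all genes were called. With the replicate block 17 were called, where 36.8% of all genes were. The values below are of the fit without it. Tlr2, the bacterial lipoprotein receptor gene, had a difference of log2 1.84 (adjusted p = 0.003), from 0.28 in AE9a and -1.50 in WT cells. Irak3, the inhibitor of Toll-like receptor signalling, had a difference of log2 0.82 (adjusted p = 0.0079). Map3k8, which encodes the kinase TPL2, had a difference of log2 1.01 (adjusted p = 0.047), and its call was lost for each of the 12 libraries left out in turn except WT C16 2. Nfkbie, the IkB-epsilon gene, had a difference of log2 -0.77 (adjusted p = 0.03), and its call was lost for each except AE9a DMSO 1, WT DMSO 1, WT DMSO 3 and WT C16 2.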

How the results depend on the processing

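The 94 calls of single members were recomputed under the alternatives that apply to each, 1088 values in all. Of these 906 kept direction and call, 182 kept direction and lost the call, and 0 reversed, and 41 of the 94 calls held under every alternative run. Leaving out 1 library gave 130 of the lost calls and fitting all 18 libraries 33. Fitting all 18 libraries called 9 members (C16 in AE9a), 0 (RE in AE9a), 7 (C16 in WT) and 14 (C16 against RE in WT). With the replicate block 15 members were called for C16 in WT cells, 1 for RE in WT, 24 for C16 against RE in WT, 26 between genotypes and 17 for the difference in C16 response. In the last 2 the block is the number within a genotype, and in every other comparison the block moved the count by less than 1.5 times. Without the filter on low counts 1 (C16 in WT) and 3 (C16 against RE in WT) were called. DESeq2 called 10 for the difference in C16 response. Without the 3 WT replicate 2 libraries the counts were 23 (C16 in WT), 10 (RE in WT), 29 (C16 against RE in WT), 25 (genotypes) and 22 (difference in C16 response). Leaving out single libraries gave 5 to 9 members for RE in AE9a cells (lowest without AE9a DMSO 1, and 7 without AE9a RE 1, 2 or 3), 0 to 3 for C16 in WT (0 without WT DMSO 1, WT DMSO 3, WT C16 1 or WT C16 3, 1 without WT DMSO 2, 3 without WT C16 2) and 0 to 8 for C16 against RE in WT (0 without WT RE 1). It gave 10 to 16 between genotypes (lowest without AE9a DMSO 2) and 2 to 15 for the difference in C16 response. That was 2 without AE9a DMSO 2, AE9a C16 1, AE9a C16 2, WT C16 1 or WT C16 3, and 15 without the library labelled WT C16 2. The cause was not tested. Among fits without a single library, shares of all genes were counted only for AE9a C16 3 and WT C16 2. The other counts without a single library, and those without the low-count filter, have no such share beside them. With 3 libraries a group and the spread of WT replicate 2, changes in WT cells may go uncalled in the fit without a block. The 29% of 2-fold changes recovered holds for counts simulated as independent libraries at the spread of that fit. It does not measure what the fits with the block can call.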
